A study of Homo sapiens with 6 samples.

Results

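The 10 genes described here encode transcription factors of the ETS family: FLI1, ERG, ETS1, ETS2, ETV1, ETV4, ETV5, ETV6, ELF1 and GABPA. They were chosen by name, as the rows with these symbols among the 26364 gene symbols of the expression table, and all 10 were found. The 18 other human ETS genes were read beside them, so that the 28 genes of the family were covered. RNAseq had been done on A673/TR/shEF cells, which are A673 cells, a human Ewing sarcoma cell line, carrying a tetracycline repressor and a doxycycline-inducible shRNA against the chimeric EWSR1::FLI1 mRNA. Both groups carry the shRNA construct. The EWSR1::FLI1 high group was left untreated and the EWSR1::FLI1 low group received 1 µg/mL doxycycline for 72 h, with 3 libraries each. No group with doxycycline but without the shRNA was analysed here, so the effects of doxycycline and of the shRNA cannot be told apart. The series description calls the 3 samples of each group independent clones, whereas the titles number them as experiments. The p-values below therefore measure the spread between these samples, which may be technical.

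ETS factors share a DNA-binding domain that recognises a GGAA core. In Ewing sarcoma a chromosomal translocation joins the 5′ part of a FET gene, most often EWSR1, to the 3′ part of an ETS gene, most often FLI1 and less often ERG, FEV, ETV1 or ETV4. The fusion protein keeps the ETS domain, binds single ETS sites and also repeats of GGAA, and is transcribed from the promoter of the FET gene. A normal cell expresses many ETS factors at once, and they can compete for the same sites.

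The expression values were FPKM, read fragments scaled to library size and to transcript length, which allows a rough comparison between genes. The libraries held between 6980361 and 16658933 reads on genes, with medians of 8359615 in the high group and 8570957 in the low group. EWSR1::FLI1 low replicate 1 had the fewest reads and stood apart at low values: the 25th percentile of its FPKM values was 0.372, against at most 0.232 in the other libraries. For some genes the value without it is given as well. The limma test on log2(FPKM + 1) took in every gene whose mean FPKM reached 0.5, and a gene was called at a Benjamini-Hochberg adjusted p under 0.01 over the 15504 genes tested. Among these genes 4.51% were called higher and 3.37% lower in the EWSR1::FLI1 low group. In 17.5% of them all low libraries lay above all high libraries, and in 23.6% all lay below. The median log2 fold change of all tested genes was -0.05. The 7 genes fixed as Ewing sarcoma markers, CCND1 and NKX2-2 among them, summed to between 773 and 813 FPKM in the high libraries and to between 217 and 284 FPKM in the low libraries.

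All 10 genes passed the filter on low values, ERG only through the low group, since its mean was 0.356 FPKM in the high group and 0.662 FPKM in the low group. FLI1 and ETS2 fell with EWSR1::FLI1 knockdown, and none of the 10 was called higher. The FLI1 row counts the 3′ part of the fusion mRNA that the shRNA targets. A fall of FLI1 was thus what the design aimed at, and it is not a separate finding. Over all genes tested, 4.51% were called higher and 3.37% lower. At an unadjusted p under 0.05, 2 genes were lower (FLI1 and ETS2) and 2 were higher (ETS1 and ETV6), and a second test, limma-voom on reads recovered from the FPKM values, called 0 higher and 2 lower. Over all genes tested, 15.6% were higher and 18.7% lower at the unadjusted limit, and limma-voom called 6.10% higher and 5.06% lower, so that the count of 2 and 2 at the unadjusted limit is near that of all genes. The median log2 fold change of the 10 genes was 0.00, with 5 above and 5 below 0. The low libraries lay entirely below the high libraries in FLI1 and ETS2 and entirely above them in ETV6, and the groups overlapped in the other genes. Such separation was common: 23.6% of all genes tested lay entirely below and 17.5% entirely above.

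**Figure D1:**
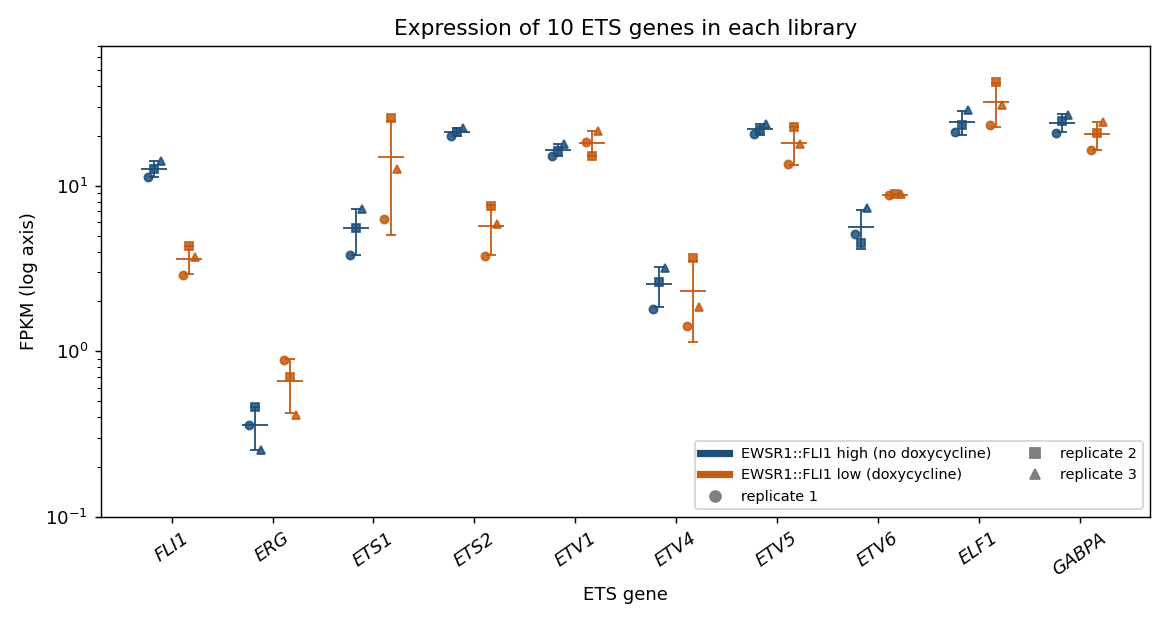
FPKM (log axis) of the 10 ETS genes in each of the 6 libraries, with EWSR1::FLI1 high in blue and EWSR1::FLI1 low in orange. Marker shapes are replicate numbers, and horizontal lines and bars are the mean and SD of 3 libraries. FLI1 and ETS2 separate downwards, ETV6 separates upwards, and ETS1 has the widest spread in the low group, from 6.25 to 25.5 FPKM.

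FLI1, whose 3′ part lies in the fusion, is at chromosome 11, 128556430 to 128683162, plus strand (GRCh37). The table has 1 row per gene symbol, so its value does not separate the fusion transcript from transcripts of an unrearranged FLI1 allele. High replicates 1, 2 and 3 had 11.3, 12.7 and 14.2 FPKM of FLI1, from 519, 441 and 480 reads. Low replicates 1, 2 and 3 had 2.91, 4.29 and 3.68 FPKM, from 113, 154 and 251 reads. Every low library was below every high library. The mean fell from 12.7 ± 1.43 to 3.63 ± 0.696 FPKM (SD, n = 3 each), a high-to-low ratio of 3.50, and FLI1 mRNA was still counted in every treated library. The log2 fold change was -1.57 (SE 0.18, limma adjusted p = 0.000676), and without low replicate 1 it was -1.46 (limma adjusted p = 0.000706). An antisense RNA within FLI1, SENCR, had between 0 and 8 reads per library, against at least 113 for FLI1.

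ETS2, a factor activated by RAS and ERK signalling, is at chromosome 21, 40177107 to 40196879, plus strand (GRCh37). ETS2 had 19.9, 21.2 and 22.5 FPKM in high replicates 1, 2 and 3. In low replicates 1, 2 and 3 it had 3.75, 7.57 and 5.89 FPKM, again with no overlap. The mean fell from 21.2 ± 1.31 to 5.74 ± 1.91 FPKM (SD, n = 3 each), a high-to-low ratio of 3.69. On the log2 scale ETS2 changed by -1.76 (SE 0.23, limma adjusted p = 0.00123), and without low replicate 1 it was -1.53 (limma adjusted p = 0.000513). Without high replicate 2 the call was lost at limma adjusted p = 0.0106, with a log2 fold change of -1.76. When no filter on low values was applied, neither gene was called, with limma adjusted p = 0.0157 for FLI1 and 0.0289 for ETS2.

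RefSeq promoter windows (GRCh38.p14, 250 bases before to 50 after a transcription start) were given for 6 of the 10 genes, 17 windows in all, and for FEV, the ETS gene described below that also fell. FLI1, ETS1, ETV4 and ETV5 had no entry. The windows of ETS2 and FEV are shown because these genes were called lower together with FLI1. The call of FEV rests on few reads and was lost in several fits, as given below. Capitals mark the ETS core GGAA or its complement TTCC, each sequence is written 5′ to 3′ on the strand of the gene, and each matched a single place in GRCh37. The ETS2 windows are at chr21:40176857-40177156 and chr21:40177603-40177902 (plus strand), and the FEV window is at chr2:219849857-219850156 (minus strand).
ETS2, first start: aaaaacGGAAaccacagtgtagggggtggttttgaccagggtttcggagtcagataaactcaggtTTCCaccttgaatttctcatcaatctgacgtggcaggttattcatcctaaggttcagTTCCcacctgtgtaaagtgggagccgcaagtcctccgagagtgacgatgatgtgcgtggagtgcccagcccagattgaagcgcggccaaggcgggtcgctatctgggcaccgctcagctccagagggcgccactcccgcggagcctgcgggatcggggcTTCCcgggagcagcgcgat
ETS2, second start: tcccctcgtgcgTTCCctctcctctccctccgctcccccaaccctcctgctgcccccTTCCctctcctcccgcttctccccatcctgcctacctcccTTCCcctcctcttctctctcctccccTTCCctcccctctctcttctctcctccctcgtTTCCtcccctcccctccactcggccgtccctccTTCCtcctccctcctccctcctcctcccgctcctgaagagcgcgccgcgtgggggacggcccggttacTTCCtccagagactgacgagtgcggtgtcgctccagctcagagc
FEV: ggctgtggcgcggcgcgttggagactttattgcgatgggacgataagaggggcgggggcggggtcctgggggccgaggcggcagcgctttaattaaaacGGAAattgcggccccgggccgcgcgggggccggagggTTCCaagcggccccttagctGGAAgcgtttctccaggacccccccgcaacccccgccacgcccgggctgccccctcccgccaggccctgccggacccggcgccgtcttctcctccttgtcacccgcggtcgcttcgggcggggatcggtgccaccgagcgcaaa
They hold 4, 7 and 3 matches of the ETS core on both strands, against a median of 3 over all 35116 windows, of which 95.5% hold at least 1. Neither gene's windows hold a tandem pair of cores (GGAAGGAA or TTCCTTCC, in 3.67% of all windows) or the longer site CCGGAAGT or ACTTCCGG (4.14% of all windows). Both longer motifs contain the core. Of the 17 windows of the 10 genes, 3 hold the tandem pair, in ETV1 and ELF1, and 1 holds the longer site, in GABPA. These are matches of letters in a window, and no binding was measured here.

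ETS1 and ETV6 had higher means in the low group without passing the test. ETS1, the founding member of the family, had 3.80, 5.57 and 7.25 FPKM in high replicates 1, 2 and 3. In low replicates 1, 2 and 3 it had 6.25, 25.5 and 12.7 FPKM, so that low replicate 1 lay within the range of the high group. The mean was 5.54 ± 1.72 FPKM in the high group and 14.8 ± 9.81 FPKM in the low group (SD, n = 3 each). ETS1 had a log2 fold change of 1.11 (95% interval 0.16 to 2.07, limma adjusted p = 0.0970), and without low replicate 1 it was 1.58 (limma adjusted p = 0.0105). Without low replicate 2 it was 0.64 (limma adjusted p = 0.216).

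ETV6, a transcriptional repressor of the family, had 5.13, 4.49 and 7.36 FPKM in high replicates 1, 2 and 3. It had 8.75, 8.89 and 8.89 FPKM in low replicates 1, 2 and 3. The groups did not overlap, and the low libraries were nearly equal. For ETV6 the log2 fold change was 0.59 (95% interval 0.15 to 1.02, limma adjusted p = 0.0639). When libraries were weighted by their estimated quality, ETS1, ETV6 and ELF1 were also called higher, with limma adjusted p of 0.000526, 0.00610 and 0.00451.

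ERG, the closest relative of FLI1 and its substitute in some Ewing sarcomas, was the lowest of the 10 genes in both groups. It had 0.360, 0.457 and 0.252 FPKM in high replicates 1, 2 and 3, and 0.878, 0.698 and 0.409 FPKM in low replicates 1, 2 and 3. These values rest on 15 to 60 reads per library, and the groups overlapped. ERG had a log2 fold change of 0.29 (95% interval -0.12 to 0.69, limma adjusted p = 0.297), on a scale that understates changes of genes this low.

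ETV1, ETV4 and ETV5 form the PEA3 group, whose expression and activity follow receptor tyrosine kinase and ERK signalling in many tissues. ETV1 had 15.2, 16.1 and 17.9 FPKM in high replicates 1, 2 and 3, and 18.4, 15.1 and 21.3 FPKM in low replicates 1, 2 and 3. ETV4 was much lower, with 1.79, 2.64 and 3.18 FPKM in the high libraries and 1.43, 3.67 and 1.86 FPKM in the low libraries, in the same order. ETV5 had 20.5, 21.6 and 23.6 FPKM in the high libraries and 13.5, 22.6 and 17.9 FPKM in the low libraries. None of the 3 genes passed the test, and in each the groups overlapped. The log2 fold change was 0.13 for ETV1 (95% interval -0.30 to 0.56, limma adjusted p = 0.664). It was -0.13 for ETV4 (95% interval -0.73 to 0.47, limma adjusted p = 0.773). ETV5 had a log2 fold change of -0.30 (95% interval -0.78 to 0.19, limma adjusted p = 0.372), and -0.11 without low replicate 1. The sign for ETV4 turned without low replicate 1, to 0.07, and with quality weights the sign turned for ETV4, to 0.35, and for ETV1, to -0.01. ETV5 shares 4651 bases with DGKG on the same strand (GRCh37 annotation). DGKG, a diacylglycerol kinase, fell from 19.4 ± 2.08 to 5.28 ± 2 FPKM (SD, n = 3 each), a log2 fold change of -1.75 (limma adjusted p = 0.00240). The part of DGKG reads in the ETV5 value was not tested. ETV4 and GABPA overlap DHX8 and ATP5J on the opposite strand, and whether the counting used strand is not given in the sources used here.

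ELF1 and GABPA, factors found in most cell types, had the highest mean FPKM of the 10 genes in both groups, although in single low libraries other genes exceeded GABPA. ELF1 had 21.2, 23.2 and 28.9 FPKM in high replicates 1, 2 and 3, and 23.2, 42.2 and 31.0 FPKM in low replicates 1, 2 and 3. GABPA, the DNA-binding subunit of the GABP complex, had 20.9, 24.5 and 26.8 FPKM in the high libraries and 16.3, 20.7 and 24.2 FPKM in the low libraries. The groups overlapped in both genes. ELF1 had a log2 fold change of 0.35 (95% interval -0.20 to 0.91, limma adjusted p = 0.347), which was 0.56 without low replicate 1 and 0.14 without low replicate 2. For GABPA it was -0.24 (95% interval -0.70 to 0.22, limma adjusted p = 0.453), and -0.09 without low replicate 1. The intervals leave room for changes of either sign, so equal expression was not shown.

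Ordered by mean FPKM, the high group ran ELF1, GABPA, ETV5, ETS2, ETV1, FLI1, ETV6, ETS1, ETV4 and ERG. The libraries of neighbours overlapped from ELF1 down to ETS2 and between ETV6 and ETS1, and were separate at the other steps. FLI1 therefore stood alone in the sixth place, below ETV1 at 16.4 ± 1.36 FPKM and above ETV6 at 5.66 ± 1.51 FPKM (SD, n = 3). In the low group the order was ELF1, GABPA, ETV1, ETV5, ETS1, ETV6, ETS2, FLI1, ETV4 and ERG. Neighbours were separate there only between ETV6 and ETS2 and between ETV4 and ERG. Between libraries, FLI1 overlapped both ETS2 above it and ETV4 below it. Within each low library, however, FLI1 was below ETS2 and above ETV4.

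By FPKM, FLI1 was a small part of ETS family mRNA in both groups. It made up 5.38% ± 0.214 of the summed FPKM of the 28 ETS genes in the high group and 1.57% ± 0.0710 in the low group (SD, n = 3 each). Over the 10 genes alone the shares were 9.43% and 2.92%, and over reads not divided by length they were 5.12% and 1.45% of the 28 genes. ETS2 went from 8.98% ± 0.398 to 2.44% ± 0.464, and ETS1 from 2.32% ± 0.529 to 6.09% ± 3.17 (SD, n = 3 each). The sum itself was 236 ± 22.9 FPKM in the high group and 231 ± 37.1 FPKM in the low group (SD, n = 3 each), a difference smaller than the spread between libraries. The fusion mRNA holds only the 3′ part of FLI1, so a value divided by the full transcript length can understate it. This limits the shares and the order above as measures of the fusion, and its size was not tested. These are shares of mRNA, and no protein was measured.

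**Figure D2:**
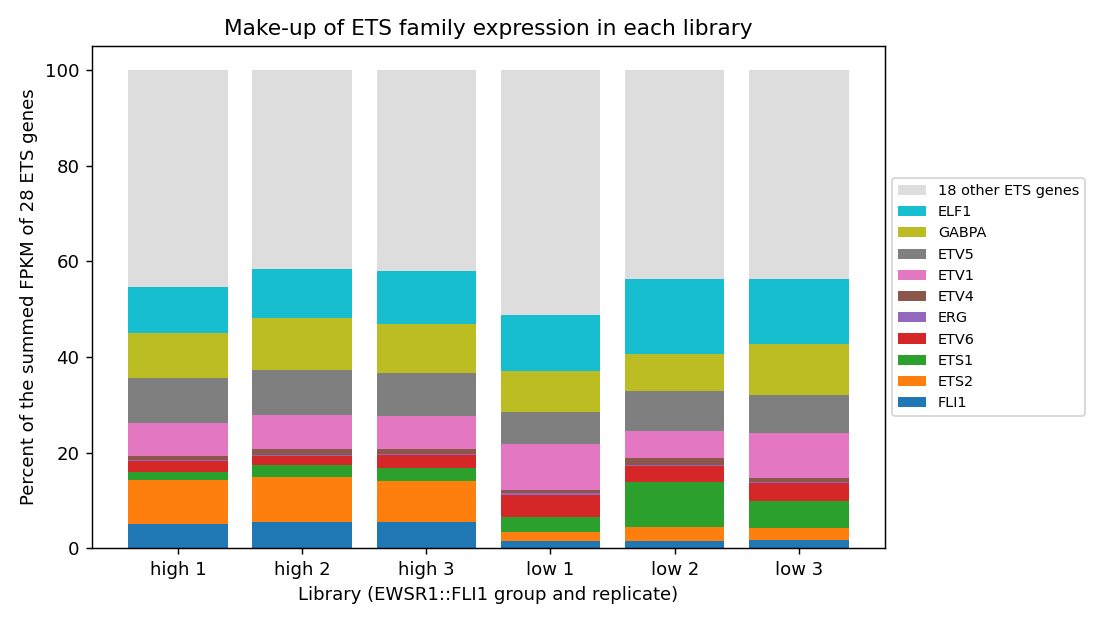
Percent of the summed FPKM of 28 ETS genes taken by each of the 10 genes (colours) and by the 18 others together (grey), per library. FLI1 at the base narrows from 5.15% to 5.58% in the high libraries to between 1.49% and 1.62% in the low libraries.

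Of the 18 other ETS genes, 11 passed the filter, 0 were called higher and 1, FEV, was called lower. Of all genes tested, 4.51% were called higher and 3.37% lower. At an unadjusted p under 0.05, 1 was higher (ELF4, limma adjusted p = 0.0379, and 0.00670 without low replicate 1) and 1 lower, against 15.6% and 18.7% of all genes, and limma-voom called 0 higher and 1 lower. FEV, a factor of serotonergic neurons and a rare fusion partner in Ewing sarcoma, had 1.32, 1.74 and 2.47 FPKM in high replicates 1, 2 and 3, from 26, 26 and 36 reads. In low replicates 1, 2 and 3 it had 0.299, 0.195 and 0.0342 FPKM, from 5, 3 and 1 reads. All low libraries were below all high libraries, and FEV passed the filter only through the high group. FEV had a log2 fold change of -1.26 (SE 0.20, limma adjusted p = 0.00325), and -1.33 without low replicate 1 (limma adjusted p = 0.00309). The added 1 sets the size of this value at such low levels: it was -2.91 with a pseudocount of 0.1 and -3.67 by limma-voom. The call was lost with no filter on low values (limma adjusted p = 0.0385) and without high replicate 2, high replicate 3 or low replicate 3, at limma adjusted p of 0.0193, 0.0178 and 0.0133.

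The other 10 genes that passed were ETV3, ERF, ELF2, ELF3, ELF4, ELF5, EHF, ELK1, ELK3 and ELK4. The 3 most highly expressed were ELF2, with 31.4 ± 1.94 FPKM in the high group and 24.1 ± 1.94 FPKM in the low group, ELK3, with 23.1 ± 1.97 and 30.8 ± 4.04 FPKM, and ERF, with 14.8 ± 5.46 and 14.2 ± 2.89 FPKM (SD, n = 3 each). None of these 3 passed the test, with limma adjusted p of 0.165, 0.162 and 0.968. The libraries of ELF2 and ELK3 did not overlap between groups, ELF2 being lower and ELK3 higher in the low group. Of all genes tested, 23.6% separated downwards and 17.5% upwards in this way.

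**Figure D3:**
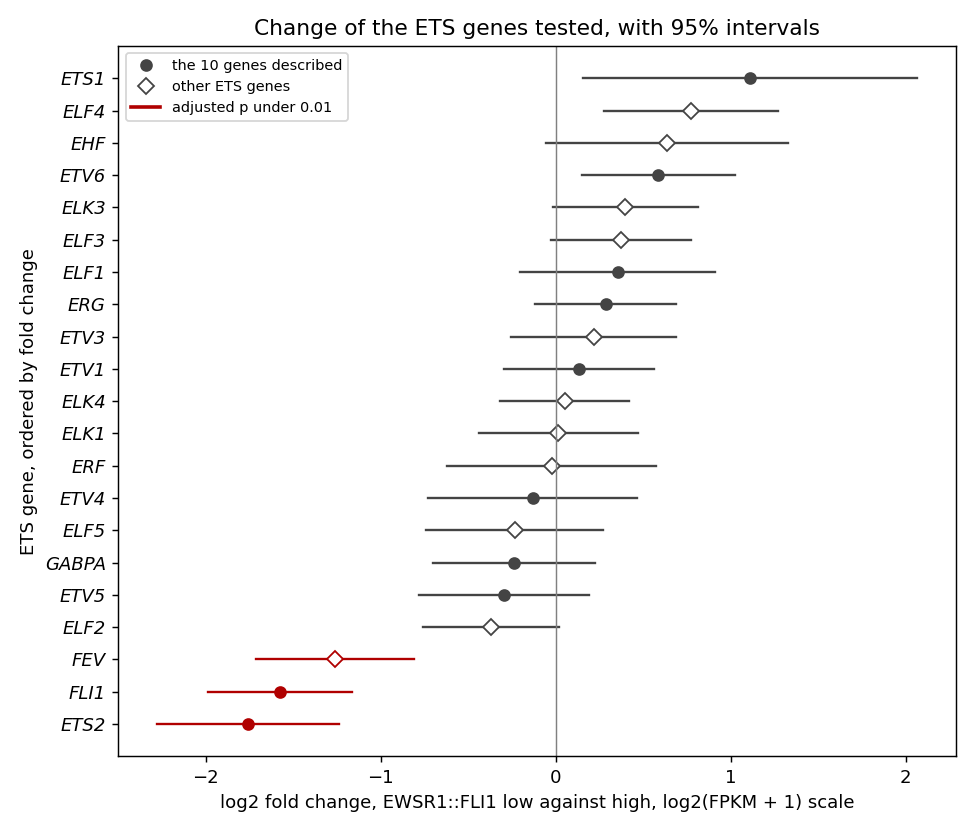
Log2 fold change, EWSR1::FLI1 low against high on the log2(FPKM + 1) scale, of the ETS genes tested, with 95% intervals from limma. Filled circles are the 10 genes described and open diamonds the other ETS genes. The 3 genes with adjusted p under 0.01, in red, are ETS2, FLI1 and FEV, all lower. FEV rests on 1 to 36 reads per library. The FLI1 row counts part of the mRNA that the shRNA targets.

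The FET genes give the 5′ part and the promoter of such fusions. EWSR1 had 79.5, 88.2 and 107 FPKM in high replicates 1, 2 and 3, and 47.2, 70.2 and 78.0 FPKM in low replicates 1, 2 and 3. Its row does not separate the fusion transcript from unrearranged EWSR1 either. The low libraries lay below the high libraries, but EWSR1 did not pass the test, with a log2 fold change of -0.50 (95% interval -1.03 to 0.02, limma adjusted p = 0.159). TAF15, another FET gene, had a log2 fold change of -0.43 (95% interval -0.97 to 0.12, limma adjusted p = 0.249). When 1 library was left out, the log2 fold change ranged from -0.65 to -0.29 for EWSR1 and from -0.59 to -0.16 for TAF15. The weakest value of each gene was that without low replicate 1.

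Among 16 partners and regulators of ETS factors, such as the GABPA partner GABPB1, the ETV repressor CIC and the kinase MAPK3, 0 were called by limma. The shares called over all genes tested were 4.51% higher and 3.37% lower. At an unadjusted p under 0.05, 2 were higher (ATXN1 and RUNX1) and 1 was lower (GABPB2), and limma-voom called 1 higher, ATXN1, while 15.6% and 18.7% of all genes were higher and lower at the unadjusted limit. RUNX1 passed the filter only through the low group, with 0.200 FPKM in the high group and 1.03 FPKM in the low group on average. ATXN1, which forms a repressor complex with CIC, had 5.19, 5.18 and 5.12 FPKM in high replicates 1, 2 and 3, and 7.88, 12.2 and 13.0 FPKM in low replicates 1, 2 and 3. Its log2 fold change was 0.94 (limma adjusted p = 0.0142), and 1.14 without low replicate 1 (limma adjusted p = 0.00106). It was named after its values were seen.

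Of 8 ERK output genes often read beside ETV4 and ETV5, 3 rose (DUSP4, SPRY2 and PHLDA1) and 1 fell (CCND1). Over all genes tested, 4.51% were called higher and 3.37% lower. At an unadjusted p under 0.05, 6 of the 8 were higher and 1 was lower, against 15.6% and 18.7% of all genes. limma-voom called 3 higher and 1 lower, against 6.10% and 5.06% of all genes. SPRY2, a feedback inhibitor of receptor tyrosine kinase signalling, had 2.30, 2.38 and 4.28 FPKM in the high libraries and 38.4, 42.5 and 37.9 FPKM in the low libraries, a log2 fold change of 3.38 (limma adjusted p = 5.36e-05). PHLDA1 went from 3.58 ± 0.368 to 49.1 ± 16.5 FPKM (SD, n = 3 each; log2 fold change 3.40, limma adjusted p = 0.000105). DUSP4, an ERK phosphatase, had a log2 fold change of 1.19 (limma adjusted p = 0.00876), and was called in only 1 of the 6 fits that left out a library, the one without low replicate 1. CCND1, cyclin D1, fell from 385 ± 9.41 to 109 ± 35.6 FPKM (SD, n = 3 each; log2 fold change -1.87, limma adjusted p = 0.00123), a call lost without high replicate 2 (limma adjusted p = 0.0112). With no filter on low values SPRY2 alone of the 8 was called, and PHLDA1, CCND1 and DUSP4 had limma adjusted p of 0.0115, 0.0392 and 0.0878. The median log2 fold change of the 8 genes was 0.75, against -0.05 for all genes tested. The list was chosen with earlier results of these data known, so these comparisons with all genes are descriptions only. CCND1 is also among the genes fixed as Ewing sarcoma markers. The ERK kinase MAPK3 itself had a log2 fold change of 0.42 (limma adjusted p = 0.240).

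**Figure D4:**
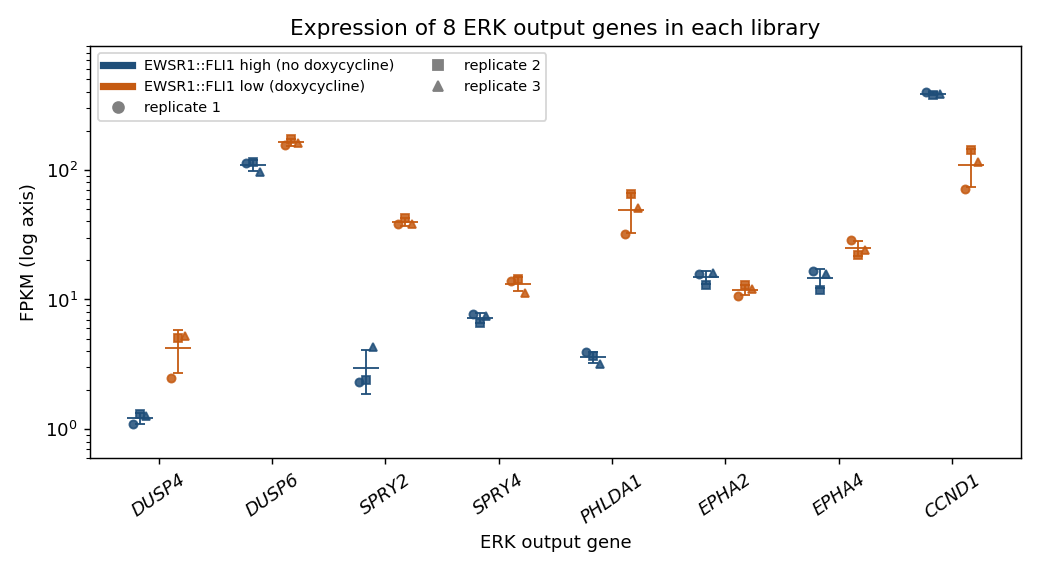
FPKM (log axis) of the 8 ERK output genes in each library, drawn as in the plot of the 10 ETS genes, with the mean and SD of 3 libraries per group. SPRY2 and PHLDA1 separate upwards by the widest margin and CCND1 separates downwards, from 385 to 109 FPKM on average.

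Across the 6 libraries, the genes whose log2(FPKM + 1) followed FLI1 most closely were RBMXL1, E2F5 and CITED2, with Pearson r of 0.997, 0.996 and 0.996. With 6 libraries in 2 groups such values are common: 471 tested genes had r over 0.95. Among the ETS genes described, ETS2 had r = 0.992 and ETV5 r = 0.708, whereas ETV6 had r = -0.790. The libraries share the grouping by treatment, so these are descriptions of the same contrast.

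FLI1, ERG and ETS1 are normally expressed in endothelial cells and leukocytes. The 4 endothelial markers (PECAM1, CDH5, TEK and VWF) summed to between 0.746 and 1.04 FPKM in the high libraries and to between 1.32 and 2.34 FPKM in the low libraries, and 1 of the 4, PECAM1, passed the filter, only through the low group (0.331 and 1.12 FPKM on average, limma adjusted p = 0.0333). The 4 leukocyte markers summed to between 0.583 and 1.17 FPKM and to between 0.737 and 1.99 FPKM, with 0 passing the filter and 1 listed at 0 in a library. The 3 megakaryocyte markers summed to between 0.295 and 0.497 FPKM and to between 0.330 and 1.45 FPKM, with 0 passing the filter and 1 listed at 0 in a library. The highest low-group sums of the leukocyte and megakaryocyte markers were those of low replicate 1, which stood apart at low values. The 3 epithelial markers summed to between 2.66 and 3.58 FPKM and to between 2.79 and 4.42 FPKM. The part of such transcripts in the values of ERG and ETS1 was not tested.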

How the data were processed

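RNAseq of A673/TR/shEF cells (3 EWSR1::FLI1 high and 3 EWSR1::FLI1 low samples, grouped by their titles) had been done on rRNA-depleted RNA with a ScriptSeq v2 kit. The submitters' processing notes name STAR 2.5.0b, GRCh37, Cufflinks 2.2.1, DESeq2 1.6.3 and bedtools 2.17.0. The authors deposited FPKM per gene symbol and library. In a second deposited table, the authors' mean signal per gene (mean normalized count) was used, and their fold changes, scores and p-values were not. Multiplied by mean signal over mean FPKM, 100% of the values were whole reads (within 0.1) divided by one factor per library, so the FPKM values had already been scaled between libraries.

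FPKM values were tested with limma 3.58.1 in R 4.3.3 (lmFit, eBayes with trend, no covariate) on log2(FPKM + 1) where the mean FPKM reached 0.5, with Benjamini-Hochberg adjustment over 15504 genes. Fold changes on this scale understate those of low genes. Alternatives changed the pseudocount, filter, scaling, variance trend, block, weights, test, threshold and libraries. An exact permutation test of 3 against 3 libraries cannot go below 0.1 and was not used. Gene positions come from a GENCODE annotation lifted to GRCh37, promoters from RefSeq. Other steps used Python 3.11.15, pandas 2.3.3 and matplotlib 3.10.9.

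Described by values were the 10 genes, other ETS genes that were called or among the 3 highest, EWSR1 and TAF15, called genes of the regulator and ERK output lists, the 3 genes most correlated with FLI1, and genes overlapping one of the 10. Values of some genes of the lists are not reported here. The members and lists were chosen with earlier results of these data known.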

Additional observations from a re-analysis of the deposited data

How the results depend on the processing

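Counts of calls depended on the setting. The 1222 genes called became 124 with no filter on low values (all 26364 symbols), 1984 with quantile normalization, 4745 with sample quality weights, 3067 at an adjusted p under 0.05, and 444 to 2178 when 1 library was left out, the highest without EWSR1::FLI1 low replicate 1. The unfiltered fit called 0 of the 10 ETS genes, 0 other ETS genes and 1 ERK output gene; FLI1 then had a log2 fold change of -1.57 (limma adjusted p = 0.0157), ETS2 -1.76 (0.0289) and FEV -1.26 (0.0385). A stricter filter, a mean FPKM of at least 1, kept both calls. After the unfiltered result had been seen 2 milder filters were added: a mean FPKM above 0 (24488 symbols, 753 calls, FLI1 0.00217, ETS2 0.00351) and at least 10 reads over the libraries (22073 symbols, 1155 calls, FLI1 0.000781, ETS2 0.00101). Both calls are thus lost only in the unfiltered form of these filters, and the 2 added ones are not independent of what had been seen. The cause was not tested.

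Quality weights called 5 of the 10 genes, 5 other ETS genes and 3 regulators, gave ETS1 1.93, ETV6 0.68 and ELF1 0.74, and reversed ETV1 (-0.0052) and ETV4 (0.35). At an adjusted p under 0.05, 2 other ETS genes, 1 regulator and 7 ERK output genes passed; quantile normalization and limma-voom each called 1 regulator. Leaving out 1 library gave 1 to 2 of the 10 genes, 0 to 2 other ETS genes, 0 to 1 regulators and 2 to 5 ERK output genes. The log2 fold change then ranged from -1.68 to -1.46 for FLI1, -1.95 to -1.53 for ETS2, -1.40 to -1.11 for FEV and -0.41 to 0.066 for ETV4, which reversed without low replicate 1. The FLI1 share of 5.38% and 1.57% was 9.43% and 2.92% over the 10 genes, and 5.12% and 1.45% over reads. In all, 260 of 304 recomputed values kept their direction and side of the threshold, or stayed close to the reported count or share. This total includes outcomes that could hardly differ, such as median-ratio scaling, which changed no value, and genes uncalled in both fits.

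Samples with the same number deviated together with r of 0.271, 0.0889 and 0.124, against -0.289 to 0.189 for different numbers. Of the 6 libraries, 4 correlated best with their own number. The main test did not take the numbers as pairs, and these values do not settle whether they are. With a replicate block 1702 genes were called and still 2 of the 10, with limma adjusted p = 0.0228 for ETS1. Median-ratio scaling changed no value. ERG was not tested at a mean FPKM of at least 1. Genes near a few reads, such as FEV and ERG, are limited by counting error, which the reads given beside them show.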

Other observations

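The 7 ETS genes below the filter on low values were ETV2, ETV3L, ETV7, SPDEF, SPI1, SPIB and SPIC. Their highest read count in a library was 12, for SPI1, the factor of myeloid and B cells, at 0.0677, 0.178 and 0.367 FPKM in the untreated libraries 1, 2 and 3 and at 0.958, 0.520 and 0.0911 FPKM in the treated libraries 1, 2 and 3. ETV3L had 6, 1 and 3 reads in the high libraries and 11, 10 and 10 reads in the low libraries, and was the only one of the 7 whose groups did not overlap in FPKM. Among all genes above the filter, 17.5% separated upwards in this way and 23.6% downwards. SPDEF had 0 reads in 2 libraries and SPIC in 2 libraries, where the 95% upper limit of a count of 0 is about 3 reads, for counting error only.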
